A study of Homo sapiens with 8 samples.

Results

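The genes described here are those for the eukaryotic translation initiation factors, eIF1 to eIF6, in the human osteosarcoma line MNNG/HOS. They were chosen by name only: every probe whose platform gene symbol began with EIF and a digit from 1 to 6 was taken. The EIF4E-binding proteins (EIF4EBP), the eIF2 kinases (EIF2AK), the pseudogene EIF3IP1 and the non-coding gene EIF3J-DT were left out, which removed 11 probes. This gave 47 genes on the array with 73 probes. A probe entered the tests if it exceeded 20, the lowest value in the table, on at least 2 of the 8 arrays, and the brightest such probe stood for its gene. By this filter 45 of the 47 genes were tested, among 12759 genes of 20040 with a name on the array. EIF5AL1 and a Y-linked gene of the eIF1A pair did not pass it.

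Translation of most mRNAs begins when the small ribosomal subunit, loaded with the initiator tRNA, is brought to the capped 5′ end and scans to a start codon. eIF2, a complex of an alpha, a beta and a gamma subunit, delivers the tRNA with GTP, and eIF2B recharges it with GTP. eIF3 is a large scaffold on the small subunit. The eIF4 factors bind the cap (eIF4E), bridge it to eIF3 (eIF4G) and unwind the mRNA (eIF4A, aided by eIF4B and eIF4H). eIF1, eIF1A and eIF5 govern the choice of start codon, and eIF5B and eIF6 act on the large subunit. The kinase mTORC1, which rapamycin inhibits through FKBP12, controls this step mainly by phosphorylating the EIF4E-binding proteins. It is also known for controlling the translation of mRNAs whose 5′ end is a C followed by a run of pyrimidines, among them mRNAs of several initiation factors. JQ1 displaces the BET bromodomain proteins, readers of acetylated histones, from chromatin, and some genes for initiation factors carry the CACGTG element that MYC and related factors bind.

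Total RNA was hybridised as biotin-labelled cRNA to 8 Illumina arrays, 2 for each of 4 groups of MNNG/HOS cells. The groups received DMSO, the solvent and control; JQ1, labelled as 7.5 mM; rapamycin, labelled as 12.5 nM; or both drugs. The length of treatment was not given in the sources used here, and no label says whether the paired arrays of a treatment hold RNA of different cultures. The p-values therefore speak of the spread among these 8 arrays, and that spread may be technical only. Of 7 osteoblast-lineage markers, COL1A1, SPARC, CDH11 and TNFRSF11B were above 20 on all 8 arrays and RUNX2 on 4, whereas COL1A2 and ALPL were at 20 throughout. Among the markers of other cell types, PTPRC, CD3E, HBB, CDH1, CDH5, MYH2 and DES were at 20 on every array. EPCAM, an epithelial marker, measured 146.8 to 224.9 on all 8 arrays.

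The deposited tables disagree about which array is which. Every column of the non-normalized table matched a single column of the normalized value table, with a rank correlation of at least 0.997 against 0.9795 or less for any other pair. For 6 of the 8 columns the non-normalized table's header gives the matching array another group or replicate name. By those header names, all replicate 2 arrays of the value table had received rapamycin, all its rapamycin arrays had received JQ1, and its JQ1 arrays were the replicate 2 arrays. The groups used here are those of the value table, in which each column belongs to a sample record, and header-name values are set beside many of the members described by array, but not all. Under the header names 67 of the 156 changes computed for the 26 members named by array take the other sign.

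Short stretches of promoter are shown first, because the start sequence and the CACGTG element are the features by which mTORC1 and MYC are known to act on such genes. They are RefSeq sequences on GRCh38.p14, written 5′ to 3′ on the strand of the gene. In the first set, the capitals begin at the annotated start and mark a C with its run of pyrimidines. They belong to eIF2 (EIF2A, EIF2S3), eIF3 (EIF3D, EIF3F, EIF3K, EIF3M) and eIF4 (EIF4A2, EIF4B) genes, at chr3:150546777-150546806, chrX:24054946-24054975, chr22:36529147-36529176, chr11:7987327-7987356, chr19:38619178-38619207, chr11:32583821-32583850, chr3:186783567-186783596 and chr12:53006446-53006475 in that order.
EIF2A: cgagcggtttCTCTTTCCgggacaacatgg
EIF2S3: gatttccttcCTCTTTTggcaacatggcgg
EIF3D: cgcatgtttcCTCTTTTCCTggtttctcaa
EIF3F: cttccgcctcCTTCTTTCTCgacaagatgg
EIF3K: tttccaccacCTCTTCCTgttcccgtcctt
EIF3M: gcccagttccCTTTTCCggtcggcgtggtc
EIF4A2: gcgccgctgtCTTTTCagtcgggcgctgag
EIF4B: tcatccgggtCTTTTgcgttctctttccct
For comparison, the same window of EIF4ENIF1, at chr22:31489823-31489852, has no such run at its annotated start.
EIF4ENIF1: gccgggctgcagttacggcggctgaagaga

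In the second set the capitals mark CACGTG, which reads the same on both strands. The genes shown are EIF1B, EIF4A3, EIF4E and EIF4G1, the windows lying at chr3:40309641-40309670, chr17:80147232-80147261, chr4:98929188-98929217 and chr3:184314527-184314556.
EIF1B: gcgcgggacggtCACGTGggaggggccgcg
EIF4A3: ccagttccctttCACGTGacgaagagtgcc
EIF4E: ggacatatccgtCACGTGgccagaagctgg
EIF4G1: ccctgcgccggtCACGTGggggcgccggct
The promoter table held 38 of the 45 genes, and EIF2S2, EIF3A, EIF3CL, EIF3E, EIF3G, EIF3H and EIF3L were not matched. In windows from 250 bases before to 50 after the start, CACGTG was found in 10 of the 38 (26.3%), against 8.77% of 27305 genes in the table. A start on C followed by at least 4 pyrimidines was found in 9 of the 38 (23.7%), against 5.14% of all genes; the ninth gene is EIF2D. The element TGATGNAA, searched on both strands as the core of the sites that ATF4 binds, was found in 1 (2.6%), EIF4E3, against 4.46%. The 27305 genes were not limited to those tested here and were not matched to the 38 for intensity. The shares therefore compare unlike sets, and an excess among initiation factors was not tested. A match of letters is a description of the window and not evidence of binding.

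By the value table's names, the initiation factor mRNAs as a group moved little on any treatment. Against DMSO, their median log2 change was 0.04 with JQ1, -0.08 with rapamycin and -0.03 with both drugs. Under JQ1 none of the 45 was called at an adjusted p under 0.05 (limma, Benjamini-Hochberg over all 12759 genes), where 2.83% of all genes were called, and 4 of the 45 had an unadjusted p under 0.05 against 18.1% of all genes. Under rapamycin none was called, against 0.0235% of all genes, which is 3 genes, and 3 had an unadjusted p under 0.05 against 9.89%. With both drugs 1 of the 45 was called, EIF4ENIF1, which was lower, against 7.18% of all genes called in either direction and 4.25% called lower. In that comparison 6 of the 45 had an unadjusted p under 0.05 against 23.7% of all genes. The fit behind these counts has no replicate term. A replicate block called 4 of the 45 with both drugs (EIF1, EIF1B, EIF2S2 and EIF4ENIF1), against 2416 of all 12759 genes. For JQ1 the block called 1, EIF4A3, against 1427 of all genes. No label says that equal replicate numbers mark a shared batch. Intensities are relative to the RNA hybridised, so a change in the amount of RNA per cell cannot be told apart from no change.

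**Figure D1:**
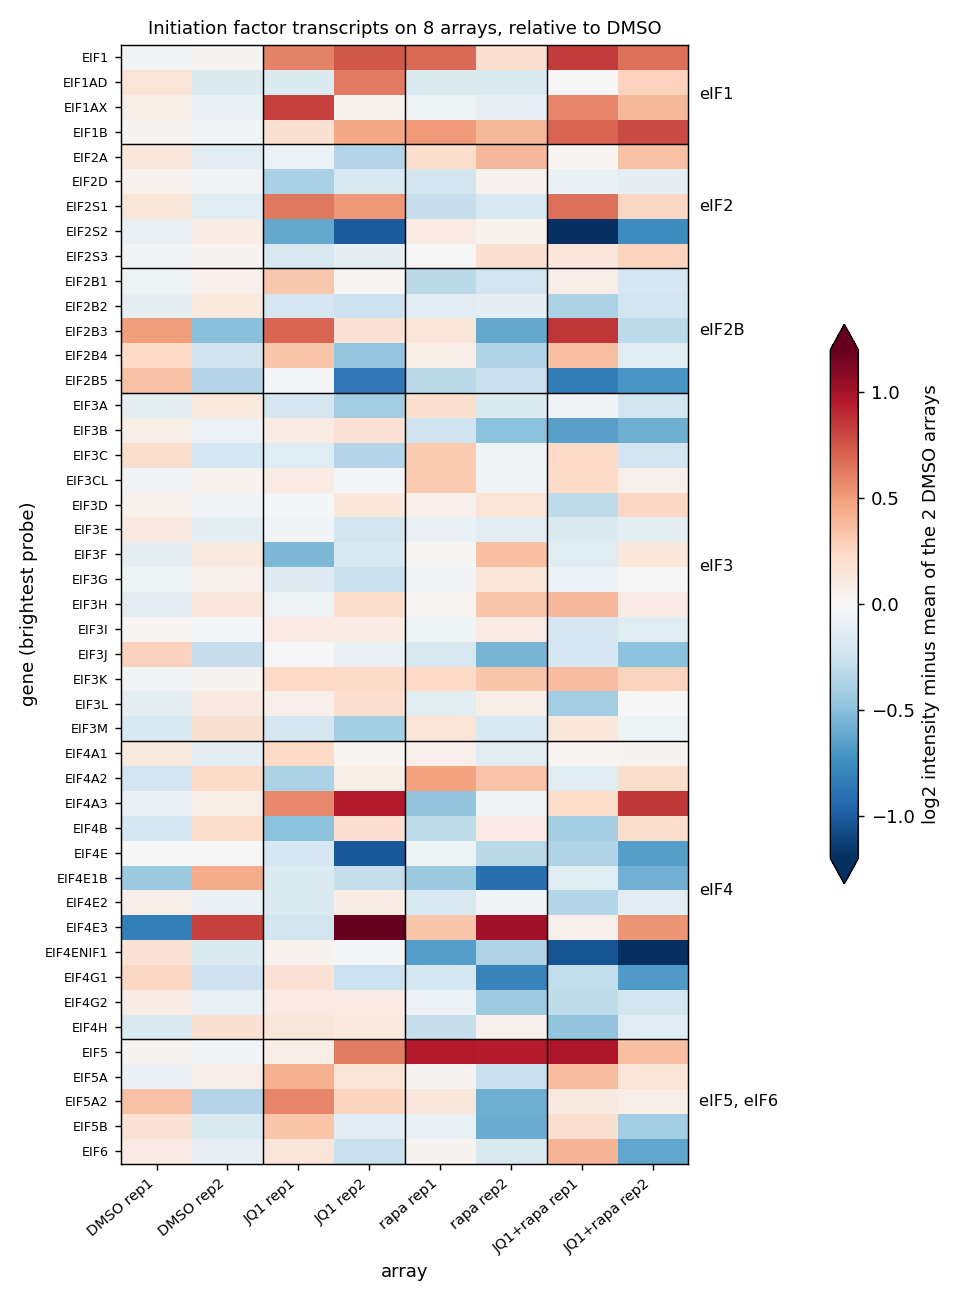
Heat map of the 45 initiation factor genes (rows, grouped by factor) on the 8 arrays (columns), as log2 intensity minus the mean of the 2 DMSO arrays, with colours saturating at the ends of the scale. EIF4ENIF1 is lowest on the arrays with both drugs, EIF2S2 on the 4 arrays with JQ1, and EIF2B3 and EIF4E3 differ mainly between replicate 1 and replicate 2.

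By the value table's names, the changes of the initiation factor mRNAs were small beside those of all genes. Whether this holds with the header names was not tested. There the medians with both drugs were -0.54 for eIF2B and -0.52 for eIF5 and eIF6, but 0.02 for eIF3. The median absolute log2 change of the 45 genes was 0.21 with JQ1, 0.18 with rapamycin and 0.24 with both drugs. Over all genes tested it was 0.29, 0.24 and 0.36, and over the 9015 genes above 20 on all arrays 0.31, 0.24 and 0.40. A change over 2-fold was measured for 0 of the 45 genes with JQ1, 0 with rapamycin and 2 with both drugs (4.4%), against 9.1%, 3.6% and 13.1% of all genes. The 45 genes also had a smaller spread between arrays of a group, with a median SD of 0.21 on the log2 scale against 0.29 over all genes, and brighter probes, with a median log2 intensity of 10.65 against 7.01. The part of brightness in the smaller changes was not tested beyond the genes above 20 on all arrays. Groups that did not overlap were counted for 19 of the 45 with JQ1 (10 higher, 9 lower), 13 with rapamycin (7 higher, 6 lower) and 22 with both drugs (10 higher, 12 lower). Over all genes 43.3% did not overlap with JQ1 (20.2% higher, 23.1% lower), 36.4% with rapamycin (18% higher, 18.4% lower) and 48.9% with both drugs (22.8% higher, 26.1% lower).

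**Figure D2:**
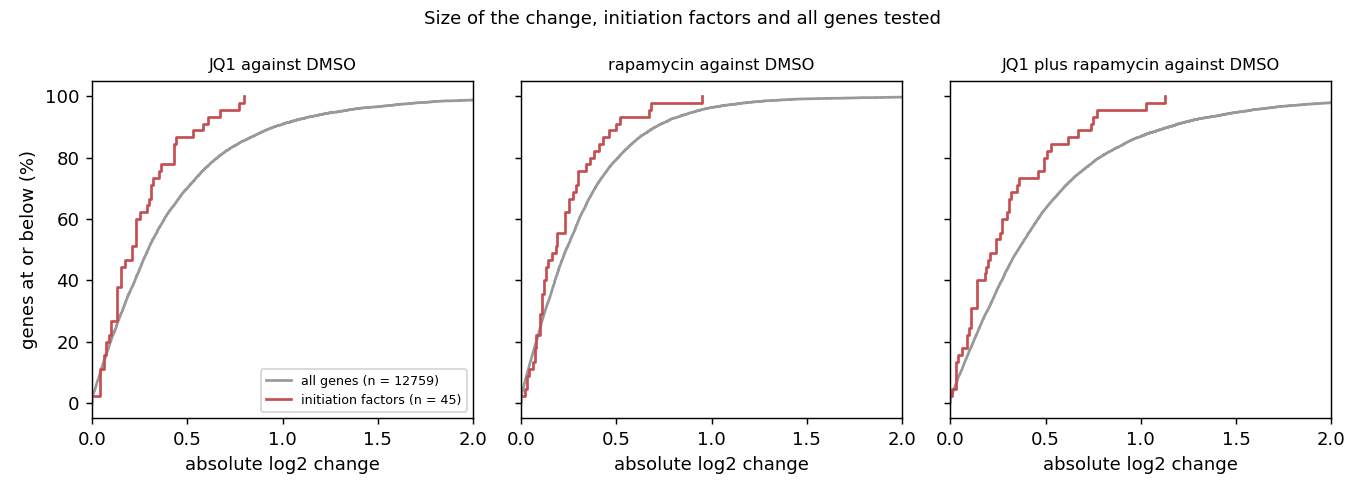
Cumulative share of genes (vertical axis, %) by absolute log2 change against DMSO (horizontal axis) for the 45 initiation factor genes (red) and all 12759 genes tested (grey), in 3 panels by treatment. The red curve lies mostly to the left of the grey, with medians of 0.21 against 0.29, 0.18 against 0.24 and 0.24 against 0.36.

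Adding rapamycin to JQ1, or JQ1 to rapamycin, called no initiation factor in the fit without a replicate term. A replicate block called EIF2S2 and EIF4A3 between both drugs and rapamycin alone, where it called 1445 of all genes. Between both drugs and JQ1 alone no gene at all was called (0%, with 8.28% at an unadjusted p under 0.05), and 2 of the 45, EIF4ENIF1 and EIF3B, had an unadjusted p under 0.05. Between both drugs and rapamycin alone 2.62% of all genes were called and none of the 45, and 4 of them (EIF2S1, EIF2S2, EIF4A3 and EIF4ENIF1) had an unadjusted p under 0.05 against 18.3% of all genes. The interaction, which is the JQ1 change with rapamycin minus the JQ1 change without it, gave no call over all genes (0%, with 3.51% at an unadjusted p under 0.05). None of the 45 had an unadjusted p under 0.05 in the interaction, so no departure from the sum of the drugs' changes was detected, which does not show that there was none.

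**Figure D3:**
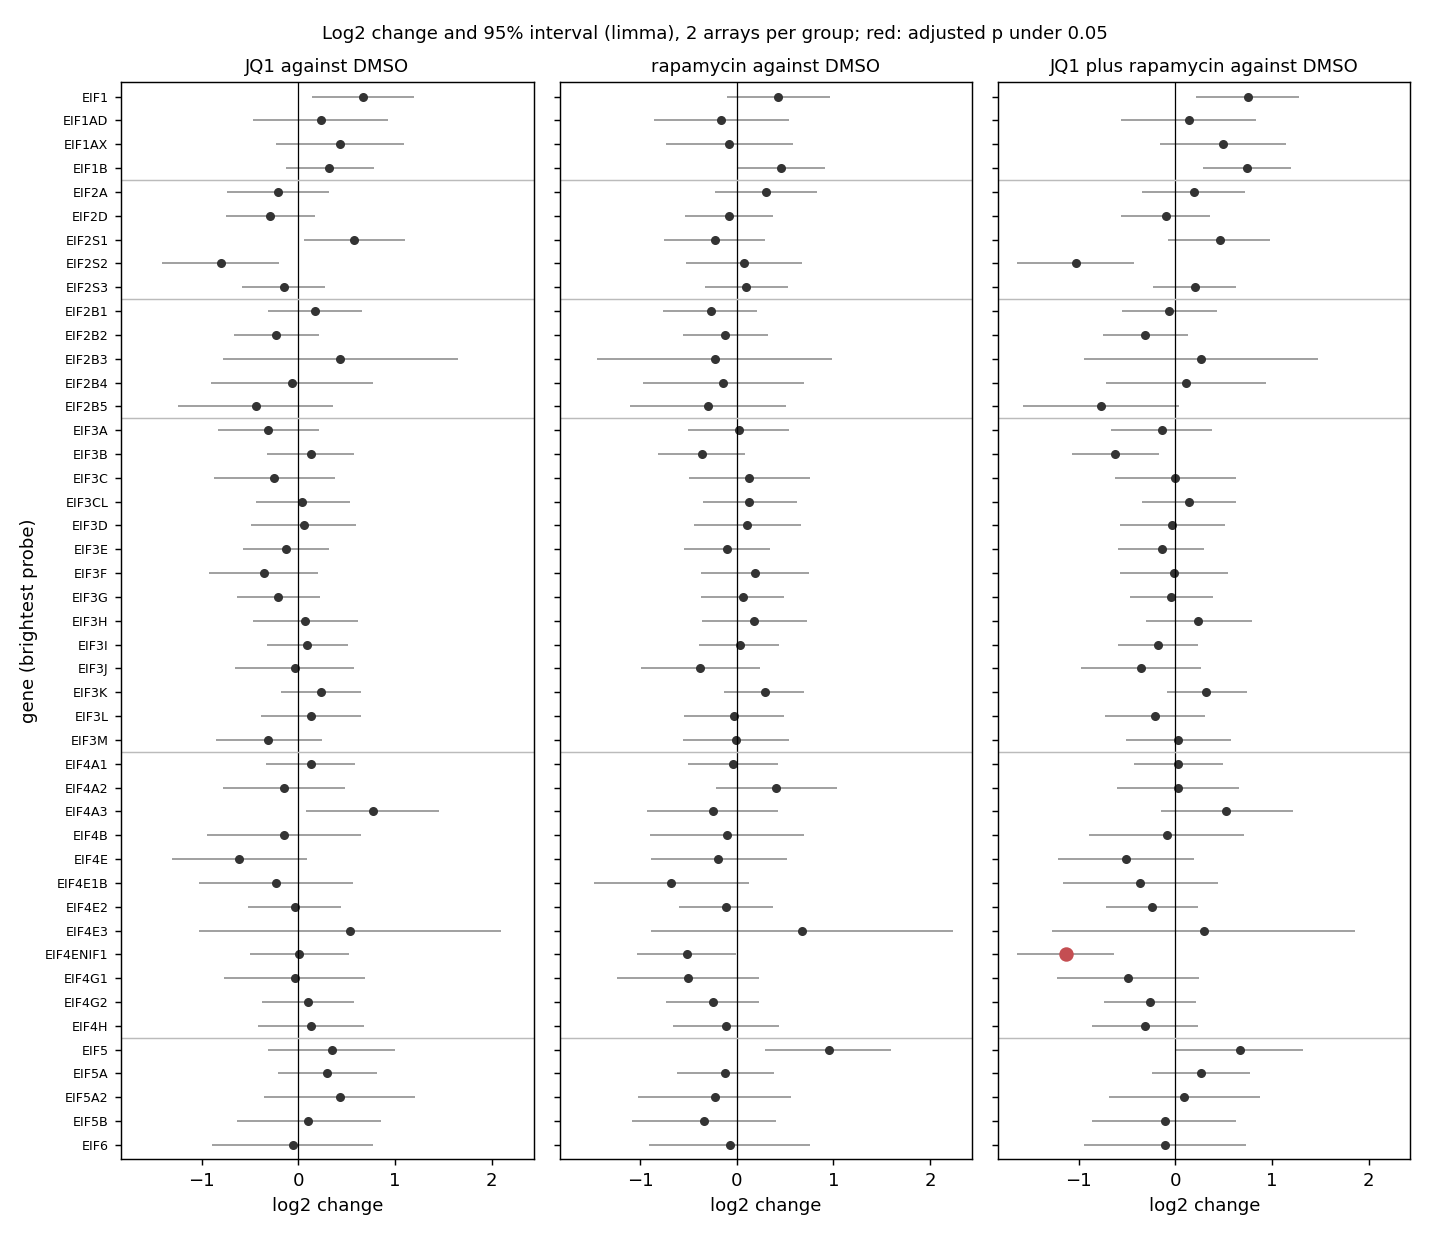
Log2 change against DMSO with its 95% interval from limma for each of the 45 genes (rows), in 3 panels for JQ1, rapamycin and both drugs, with 2 arrays per group. EIF4ENIF1 with both drugs, at -1.13, is the single gene with an adjusted p under 0.05 and is drawn in red.

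EIF4ENIF1 encodes the eIF4E transporter, which binds eIF4E, carries it into the nucleus and resides in processing bodies, where mRNAs are held untranslated. It measured 186.9 and 147.9 on the DMSO arrays, 171.6 and 163.9 with JQ1, 104.9 and 128.4 with rapamycin, and 81.0 and 70.8 with both drugs. The arrays with both drugs lay below all others, the rapamycin arrays came next, and the JQ1 arrays lay within the range of the DMSO arrays. With both drugs it fell to 0.46 times the DMSO level, a log2 change of -1.13 (SE 0.21, 95% interval -1.64 to -0.63, adjusted p = 0.0284, n = 2 and 2, limma). With rapamycin alone the log2 change was -0.52 (SE 0.21, adjusted p = 0.497) and with JQ1 alone 0.01 (SE 0.21, adjusted p = 1). Against JQ1 alone the combination measured -1.15 (SE 0.21, adjusted p = 0.36), against rapamycin alone -0.62 (adjusted p = 0.189), and the interaction was -0.63 (SE 0.30, adjusted p = 0.999).

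The call for EIF4ENIF1 did not hold under every alternative. It was lost when any of the 8 arrays was left out, with adjusted p from 0.0545 to 0.143 and log2 changes from -0.97 to -1.30. Without DMSO replicate 1 it measured -0.97 (adjusted p = 0.143), and without replicate 2 of the combination -1.04 (adjusted p = 0.105). From the non-normalized signals after normexp background correction the change was -0.68 (adjusted p = 0.0535), and with the header names of the arrays -0.91 (adjusted p = 0.222). By the header names the JQ1 change was -0.96 and the rapamycin change -0.20, since the arrays that the value table calls rapamycin-treated are JQ1-treated there.

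**Figure D4:**
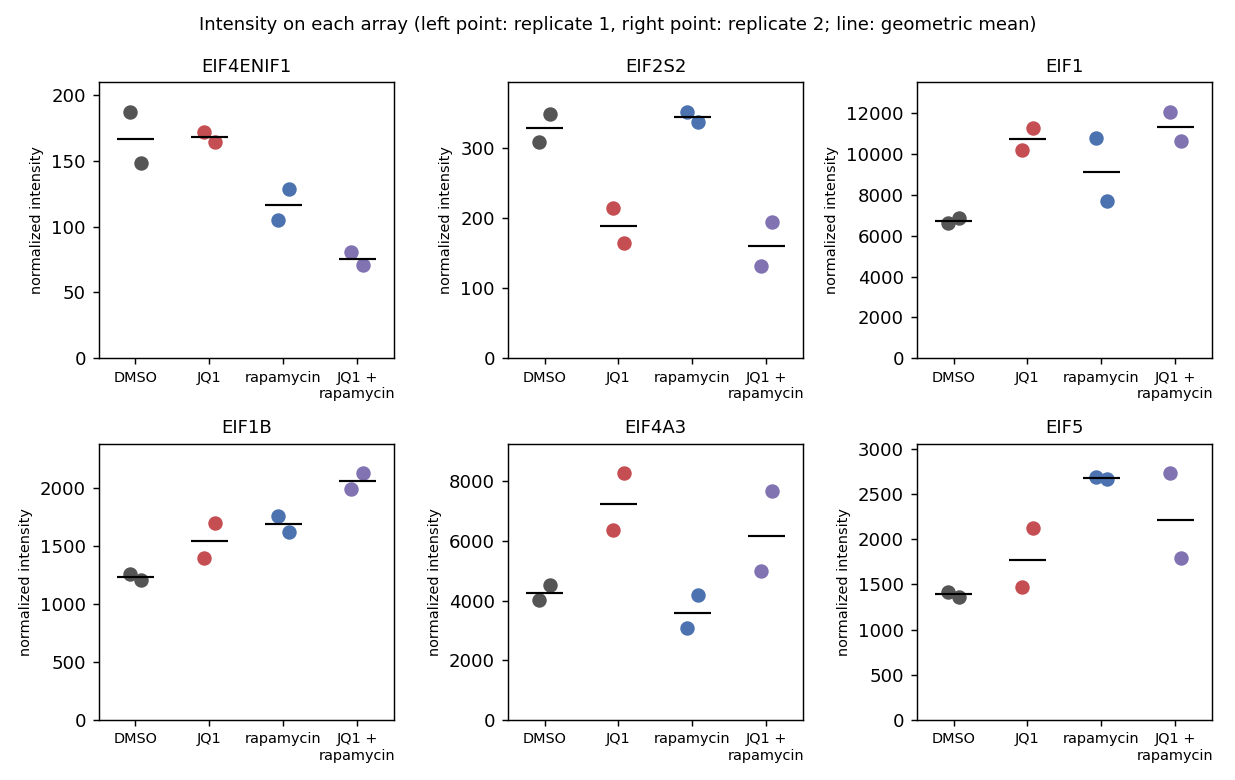
Normalized intensity (linear axis from 0) of EIF4ENIF1, EIF2S2, EIF1, EIF1B, EIF4A3 and EIF5 on each array, with 2 points per group and a line at their geometric mean. EIF4ENIF1 is lowest with both drugs (81.0 and 70.8), EIF2S2 is lower on all 4 arrays with JQ1, EIF4A3 is higher on those 4, and EIF5 is highest with rapamycin and on replicate 1 of both drugs.

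The cap-binding factor and its paralogues gave dim or flat signals. EIF4E, the cap-binding subunit, measured 60.2 and 59.5 with DMSO, 51.9 and 29.6 with JQ1, 57.7 and 47.9 with rapamycin, and 46.6 and 37.8 with both drugs. All 6 treated arrays lay below both DMSO arrays, but the values are close to the floor of 20 and the log2 change under JQ1 was -0.61 (SE 0.30, adjusted p = 0.349). Another EIF4E probe, above 20 on 7 arrays, gave -0.61 with JQ1, 0.35 with rapamycin and -1.15 with both drugs, and the remaining probe, above 20 on 2 arrays, gave -0.02, -0.02 and 0.27. On the brightest probe the header names give -0.11, -0.41 and -0.39. EIF4E2, a cap-binding protein that represses translation, ranged from 1535.1 to 2082.9 over the 8 arrays, with log2 changes of -0.04, -0.11 and -0.24 for JQ1, rapamycin and both drugs. EIF4E3, another paralogue, ranged from the floor to 86.1, with an SE of 0.66 on each log2 change. EIF4E1B, the germline paralogue, measured 27.5 and 50.8 with DMSO, 33.3 and 30.6 with JQ1, 27.4 and the floor of 20 with rapamycin, and 33.8 and 25.1 with both drugs, with a log2 change of -0.68 under rapamycin (SE 0.34, adjusted p = 0.604). The header names turn it to 0.38.

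The eIF4G scaffolds had lower means with rapamycin than with DMSO. On the brightest probes, which were the ones tested, the arrays overlapped for both genes and neither passed the test. EIF4G1, which joins eIF4E and eIF4A to eIF3, measured 1298.2 and 921.1 with DMSO, 1231.0 and 916.9 with JQ1, 945.9 and 628.9 with rapamycin, and 893.5 and 681.8 with both drugs. Its groups overlapped under rapamycin, where the log2 change was -0.50 (SE 0.31, adjusted p = 0.713), and with both drugs it was -0.49 (adjusted p = 0.412). A second EIF4G1 probe gave -0.57 and -0.52, and its rapamycin arrays lay below its DMSO arrays. EIF4G2, a homologue that lacks the eIF4E-binding part, measured 9083.9 and 8037.1 with DMSO, 9136.8 and 9133.4 with JQ1, 8126.1 and 6332.9 with rapamycin, and 6920.8 and 7315.2 with both drugs. Its arrays with both drugs lay below the DMSO arrays, with a log2 change of -0.26 (SE 0.20, adjusted p = 0.501). The 3 EIF4G2 probes gave -0.25, -0.40 and -0.50 under rapamycin, and the brightest gave -0.09 with the header names. On the dimmer EIF4G2 probes the rapamycin arrays lay below the DMSO arrays. With the header names EIF4G1 had the lowest adjusted p of the 45 genes with both drugs, at a log2 change of -0.95 (adjusted p = 0.0698).

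On their brightest probes the eIF4A helicases did not move together. EIF4A1, the main helicase of the complex, measured 36449.5 and 31147.2 with DMSO, 39698.9 and 34147.6 with JQ1, 35048.8 and 30844.1 with rapamycin, and 34287.3 and 34520.5 with both drugs. On this brightest probe the groups overlapped in every comparison with DMSO, with log2 changes of 0.13, -0.04 and 0.03. A second, dimmer EIF4A1 probe gave 0.39, -0.07 and 0.4. By the value table's names, the 4 arrays with JQ1 lay above the 4 without it on that probe. EIF4A2, its close paralogue, measured 4255.4 and 5862.8 with DMSO, 3838.8 and 5266.3 with JQ1, 6982.9 and 6328.2 with rapamycin, and 4503.7 and 5778.4 with both drugs. Its rapamycin arrays lay above the DMSO arrays, at a log2 change of 0.41 (SE 0.26, adjusted p = 0.722), against 0.46 with the header names. EIF4A3, the related helicase of the exon junction complex, measured 4029.1 and 4518.8 with DMSO, 6368.1 and 8272.5 with JQ1, 3080.9 and 4178.3 with rapamycin, and 4977.3 and 7663.3 with both drugs. All 4 arrays with JQ1 lay above the 4 without it.

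The log2 change of EIF4A3 was 0.77 under JQ1 (SE 0.29, adjusted p = 0.221), 0.53 with both drugs against DMSO (adjusted p = 0.324) and 0.78 against rapamycin alone (SE 0.29, adjusted p = 0.21). A replicate block in limma brought the adjusted p to 0.0418 under JQ1 and 0.0382 for both drugs against rapamycin alone. The interaction of EIF4A3, 0.02 (95% interval -0.95 to 0.98), leaves a wide range. With the header names its JQ1 change was -0.37, so the direction depends on which naming is right. Of the helicase's partners, EIF4B measured 2700.3 and 3628.8 with DMSO, 2229.7 and 3567.6 with JQ1, 2539.0 and 3345.6 with rapamycin, and 2378.5 and 3625.5 with both drugs. In each group its replicate 2 was the higher, and its groups overlapped in every comparison with DMSO. The header names give it a rapamycin change of 0.55 (adjusted p = 0.383) in place of -0.10. EIF4H, which also stimulates eIF4A, ranged from 1875.6 to 2952.6, with log2 changes of 0.13, -0.11 and -0.31. The median of the 12 eIF4 genes was -0.01 with JQ1, -0.15 with rapamycin and -0.25 with both drugs.

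In the eIF2 complex no gene was called without a replicate term. The alpha and beta subunits had mean changes of opposite sign under JQ1 in the value table but of the same sign with the header names. EIF2S2, the beta subunit, which contacts eIF5 and eIF2B, measured 309.8 and 350.0 with DMSO, 215.2 and 165.2 with JQ1, 352.3 and 338.3 with rapamycin, and 132.4 and 195.5 with both drugs. All 4 arrays with JQ1 lay below the 4 without it. The log2 change was -0.80 with JQ1 (SE 0.25, adjusted p = 0.152), -1.03 with both drugs against DMSO (SE 0.25, 95% interval -1.64 to -0.43, adjusted p = 0.0593) and -1.10 against rapamycin alone (SE 0.25, adjusted p = 0.073). These values did not pass the threshold. With both drugs against DMSO the adjusted p came to 0.0189 after normexp and 0.0372 without a further background step. It came to 0.0495 over genes above 20 on all arrays and 0.0293 with replicate number as a block in limma. The header names gave a log2 change of -0.01 (adjusted p = 1), with -0.26 for JQ1 alone.

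EIF2S1, the alpha subunit, on which the stress kinases act, measured 720.7 and 591.5 with DMSO, 1015.3 and 934.0 with JQ1, 539.3 and 573.8 with rapamycin, and 1031.9 and 777.4 with both drugs. All 4 arrays with JQ1 were above the 4 without, at log2 changes of 0.58 with JQ1 (SE 0.22, adjusted p = 0.226) and 0.69 for both drugs against rapamycin (SE 0.22, adjusted p = 0.157). Both turn with the header names, to -0.20 and -0.15. EIF2S3, the gamma subunit, which holds the GTP and the tRNA, measured 1211.7 and 1268.5 with DMSO, 1087.3 and 1146.4 with JQ1, 1247.6 and 1415.5 with rapamycin, and 1364.4 and 1487.7 with both drugs. Its JQ1 arrays lay below and its arrays with both drugs above the DMSO arrays, at log2 changes of -0.15 and 0.20 (adjusted p = 0.761 and 0.573), and 0.19 and 0.34 with the header names. EIF2A, a separate protein that can deliver the initiator tRNA, measured 2046.2 and 1692.2 with DMSO, 1772.4 and 1455.5 with JQ1, 2151.7 and 2436.6 with rapamycin, and 1888.3 and 2378.0 with both drugs. Its rapamycin arrays lay above the DMSO arrays, at a log2 change of 0.30 (adjusted p = 0.766), which turns to -0.28 with the header names. EIF2D, a tRNA-delivering factor outside the canonical pathway, ranged from 713.7 to 966.1. The median log2 change of the 5 eIF2 genes was -0.21 with JQ1, 0.07 with rapamycin and 0.19 with both drugs.

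For eIF2B, whose gamma and epsilon subunits form the catalytic part, no gene of 5 was called, and none had an unadjusted p under 0.05 against DMSO. EIF2B5, the epsilon subunit, measured 963.9 and 592.2 with DMSO, 741.1 and 416.3 with JQ1, 601.5 and 628.3 with rapamycin, and 425.0 and 465.0 with both drugs. Its arrays with both drugs lay below the DMSO arrays, at a log2 change of -0.77 (SE 0.34, adjusted p = 0.234), against -0.65 with the header names. EIF2B1, the alpha subunit, measured 555.0 and 601.6 with DMSO, 721.0 and 589.0 with JQ1, 461.1 and 495.0 with rapamycin, and 609.0 and 503.7 with both drugs. Its rapamycin arrays lay below the DMSO arrays, at -0.27 (SE 0.21, adjusted p = 0.765), against -0.09 with the header names. EIF2B3, the gamma subunit, ranged from 246.7 to 682.5 with an SE of 0.51 on its log2 changes, and its replicate 1 was the higher in all 4 groups. The header names give EIF2B3 changes of -0.10 with JQ1, -0.76 with rapamycin and -1.06 with both drugs (adjusted p = 0.187 for the last, limma). EIF2B2 and EIF2B4, the beta and delta subunits, had log2 changes between -0.31 and 0.11 against DMSO. The median of the 5 genes was -0.07 with JQ1, -0.23 with rapamycin and -0.06 with both drugs. For rapamycin and for both drugs the header names give medians of -0.63 and -0.54.

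On their brightest probes the 14 eIF3 genes stayed close to their DMSO levels, with median log2 changes of 0.00, 0.04 and -0.03. No eIF3 gene was called. The lowest changes were those of EIF3F with JQ1 (-0.36), EIF3J with rapamycin (-0.38) and EIF3B with both drugs (-0.62), and EIF3K had the highest in each, at 0.23, 0.29 and 0.32. EIF3B, a core subunit, measured 8251.8 and 7501.8 with DMSO, 8377.3 and 8869.0 with JQ1, 6677.8 and 5591.0 with rapamycin, and 5005.5 and 5231.9 with both drugs. Its arrays with both drugs lay below the other 6, at a log2 change of -0.62 against DMSO (SE 0.19, adjusted p = 0.101) and -0.75 against JQ1 alone (SE 0.19, adjusted p = 0.424). The header names give -0.62 and -0.10. The probes of EIF3B disagreed, since its other 2 gave -0.11 and -0.01 with both drugs.

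EIF3A, the largest core subunit, measured 1126.6 and 1326.5 with DMSO, 1064.8 and 916.3 with JQ1, 1399.7 and 1093.8 with rapamycin, and 1185.6 and 1040.0 with both drugs. Its JQ1 arrays lay below the DMSO arrays, at a log2 change of -0.31 (SE 0.22, adjusted p = 0.564), which turns to 0.23 with the header names. EIF3F measured 2684.2 and 3150.0 with DMSO, 1996.9 and 2562.5 with JQ1, 2945.2 and 3730.0 with rapamycin, and 2626.6 and 3178.1 with both drugs, and its JQ1 arrays were again below, at -0.36 (adjusted p = 0.519), which turns to 0.27 with the header names. EIF3J, a loosely bound subunit at the mRNA channel, measured 1091.6 and 740.5 with DMSO, 900.8 and 850.2 with JQ1, 787.9 and 609.8 with rapamycin, and 782.5 and 638.6 with both drugs, with overlap under rapamycin (adjusted p = 0.747) and -0.32 there with the header names. EIF3C and EIF3CL are near-identical copies, so their probes may share signal, and their changes are uncertain. They ranged from 60.9 to 96.6 and from 487.7 to 626.3, with log2 changes between -0.25 and 0.14. For EIF3M the brightest probe gave -0.01 with rapamycin and 0.03 with both drugs, and the second, dimmer probe gave 0.65 and 0.47. By the value table's names, every array with rapamycin lay above every array without it on that second probe. The remaining eIF3 genes, EIF3D, EIF3E, EIF3G, EIF3H, EIF3I and EIF3L, had log2 changes between -0.21 and 0.24 against DMSO.

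The 4 eIF1 genes had median changes of 0.38 with JQ1, 0.18 with rapamycin and 0.62 with both drugs. These were the highest of the complexes by the value table's names, and no eIF1 gene was called without a replicate term. Under the other naming the medians for JQ1 and for both drugs were 0.20 and 0.10. EIF1, which keeps the scanning ribosome from stopping at wrong codons, measured 6609.3 and 6876.5 with DMSO, 10212.6 and 11266.6 with JQ1, 10792.3 and 7687.7 with rapamycin, and 12052.1 and 10645.8 with both drugs. All 6 treated arrays lay above both DMSO arrays, at log2 changes of 0.67 with JQ1 (SE 0.22, adjusted p = 0.175), 0.43 with rapamycin (adjusted p = 0.615) and 0.75 with both drugs (SE 0.22, adjusted p = 0.0975). EIF1B, its close paralogue, measured 1257.8 and 1204.9 with DMSO, 1398.5 and 1699.9 with JQ1, 1758.7 and 1625.7 with rapamycin, and 1992.2 and 2130.1 with both drugs. Its treated arrays were likewise all above, highest with both drugs, at 0.32, 0.46 and 0.74 (SE 0.19, adjusted p = 0.46, 0.499 and 0.0661). A replicate block in limma brought the adjusted p with both drugs to 0.047 for EIF1 and 0.0314 for EIF1B. With both drugs the header names give 0.14 for EIF1 (adjusted p = 0.899) and 0.49 for EIF1B (adjusted p = 0.397).

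EIF1AX, the X-linked gene for eIF1A, measured 393.4 and 352.0 with DMSO, 655.6 and 383.2 with JQ1, 357.7 and 348.6 with rapamycin, and 560.2 and 489.9 with both drugs. Its arrays with both drugs lay above the DMSO arrays, at a log2 change of 0.49 (SE 0.28, adjusted p = 0.345), but a second, dimmer probe gave -0.51. The brightest probe's change turns to -0.30 with the header names (adjusted p = 0.746). EIF1AD, a gene with an eIF1A-like domain, was near the floor, at 34.6 or less on every array.

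EIF5, the GTPase activator of eIF2, showed the largest rapamycin change of the 45 genes. It measured 1419.9 and 1362.7 with DMSO, 1468.6 and 2130.0 with JQ1, 2694.4 and 2664.1 with rapamycin, and 2730.9 and 1787.8 with both drugs. The rapamycin arrays lay close together and above every DMSO and JQ1 array, and all 6 treated arrays were above both DMSO arrays. The log2 change was 0.95 with rapamycin (1.93-fold, SE 0.28, 95% interval 0.29 to 1.60, adjusted p = 0.318) and 0.67 with both drugs (SE 0.28, adjusted p = 0.205), neither past the threshold. Its other probes, both dim, gave 0.13 and 0.41 with rapamycin. Under the other naming the log2 change of EIF5 was 0.91 with JQ1 (adjusted p = 0.474) and 0.24 with rapamycin (adjusted p = 0.893).

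EIF5A, the hypusine-bearing factor that also aids elongation, measured 3164.9 and 3542.3 with DMSO, 4510.8 and 3762.7 with JQ1, 3432.9 and 2776.4 with rapamycin, and 4330.7 and 3749.0 with both drugs. All 4 arrays with JQ1 were above the 4 without, at log2 changes of 0.30 with JQ1 (SE 0.21, adjusted p = 0.564) and 0.38 for both drugs against rapamycin (adjusted p = 0.415), which become 0.03 and -0.18 with the header names. Its paralogue EIF5A2 measured 115.8 and 71.2 with DMSO, 136.5 and 108.9 with JQ1, 99.6 and 60.3 with rapamycin, and 97.8 and 95.9 with both drugs, and the groups overlapped in every comparison with DMSO. Its change with both drugs, 0.09, becomes -0.73 with the header names (adjusted p = 0.309). EIF6, which keeps the large subunit from joining too early, measured 4288.4 and 3744.7 with DMSO, 4428.2 and 3331.2 with JQ1, 4086.3 and 3551.7 with rapamycin, and 5321.3 and 2604.4 with both drugs. Its groups overlapped, at log2 changes of -0.06, -0.07 and -0.11 (0.10, -0.30 and -0.52 with the header names), and a second, dim probe gave -0.71, -1.01 and -0.52. EIF5B, the GTPase of subunit joining, ranged from 175.0 to 333.0, with log2 changes of 0.10, -0.34 and -0.11. With the header names these become -0.20, -0.41 and -0.76, the last with an adjusted p of 0.13 (limma). The median of the 5 eIF5 and eIF6 genes was 0.30 with JQ1, -0.12 with rapamycin and 0.09 with both drugs.

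Members with a pyrimidine run at the start differed from the others in their middle values, which is given as a description. Under rapamycin the 9 genes with the run had a median log2 change of 0.11 (range -0.10 to 0.41) and the 29 without it -0.16 (range -0.68 to 0.95). Under JQ1 the order was opposite, with -0.15 and 0.13, and with both drugs the medians were 0.03 and -0.06. By the header names the medians with and without the run were 0.07 and -0.09 for rapamycin, 0.18 and -0.18 for JQ1, and 0.34 and -0.34 for both drugs. The genes with CACGTG had a JQ1 median of 0.18, from -0.61 for EIF4E to 0.77 for EIF4A3, against 0.03 for those without it, and by the header names -0.10 against -0.09. Several genes hold both features (EIF3F, EIF3K and EIF4B), and all values share the same 8 arrays.

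Replicate number moved with the levels of several members, about as often as over all genes. Of the 45 genes, 16 differed in the same direction between replicate 2 and replicate 1 in all 4 groups, 6 higher and 10 lower in replicate 2. Over all genes 33.8% did so, 19.7% higher and 14.1% lower. The higher genes were EIF2S3, EIF3F, EIF3L, EIF4A3, EIF4B and EIF4E3, with mean log2 differences up to 1.07 for EIF4E3. The lower genes were EIF1AX, EIF2B3, EIF2B4, EIF3C, EIF3J, EIF4E, EIF4G1, EIF5A2, EIF5B and EIF6, with -0.86 for EIF2B3, -0.55 for EIF2B4, -0.48 for EIF5B and -0.47 for EIF4G1. By the header names these are differences between arrays with and without rapamycin, and EIF4E3 then measured 1.57 with rapamycin against DMSO (adjusted p = 0.171) and EIF4G1 -0.46 (adjusted p = 0.435). Under those names 0 of the 45 genes were called in any of the 6 comparisons. Few genes of all 12759 were called there either: 1 for JQ1, 25 for rapamycin, 130 for both drugs, 18 for both drugs over JQ1 and 0 over rapamycin.

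**Figure D5:**
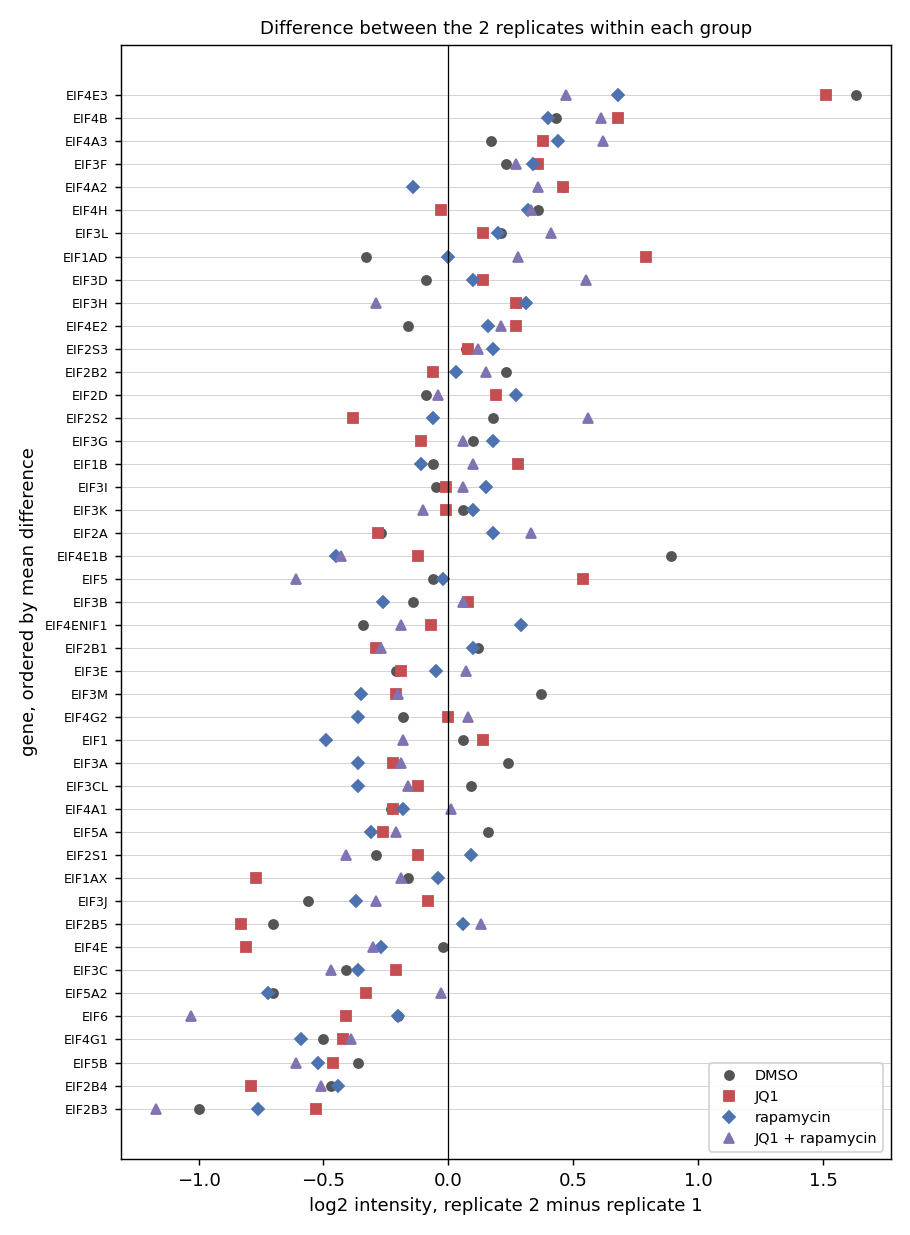
Log2 intensity of replicate 2 minus replicate 1 (horizontal axis) in each of the 4 groups (symbols) for the 45 genes (rows), ordered by the mean difference. EIF2B3 (mean -0.86) and EIF4E3 (mean 1.07) lie at the ends, and 16 genes have all 4 symbols on the same side of 0.

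Of the genes around the initiation factors, a list of 38 regulators and elongation and release factors was followed, and 37 were tested. In the fit without a replicate term, only PPP1R15A was called in any of the 6 comparisons, with both drugs, where it was higher. In that comparison 7.18% of the 12759 genes tested were called, 374 genes being higher. The list was chosen with earlier results of these data known. PPP1R15A (GADD34), which brings a phosphatase to eIF2 alpha and is induced by stress, measured 896.4 and 897.5 with DMSO, 1530.6 and 1670.4 with JQ1, 4175.3 and 3194.7 with rapamycin, and 5051.7 and 3744.8 with both drugs. Its groups did not overlap in any comparison with DMSO, and it rose by 2.28 on the log2 scale with both drugs (SE 0.23, adjusted p = 0.00692). With rapamycin alone the log2 change was 2.03 (SE 0.23, adjusted p = 0.0684) and with JQ1 alone 0.83 (adjusted p = 0.118). The header names place the larger change with JQ1, at 1.97 (adjusted p = 0.266), against 0.06 with rapamycin and 1.56 with both drugs (adjusted p = 0.122), and the gene is then not called.

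Among the EIF4E-binding proteins, EIF4EBP2 measured 207.9 and 219.9 with DMSO, 404.9 and 463.5 with JQ1, 150.7 and 183.7 with rapamycin, and 301.4 and 379.3 with both drugs. All 4 arrays with JQ1 were above the 4 without, at log2 changes of 1.02 with JQ1 (SE 0.21, adjusted p = 0.0609) and 1.02 for both drugs against rapamycin (adjusted p = 0.0602). Both turn with the header names, to -0.45 and -0.27 (SE 0.60). EIF4EBP1 ranged from 74.0 to 186.0 over the 8 arrays. Of the eIF2 kinases, EIF2AK3 (PERK) measured 54.3 and 27.3 with DMSO, 24.0 and 61.3 with JQ1, 110.8 and 94.2 with rapamycin, and 52.3 and 57.3 with both drugs. Its rapamycin arrays did not overlap the DMSO arrays but the change did not pass the test (log2 change 1.41, SE 0.49, adjusted p = 0.395). By the value table's names the rise was not repeated with both drugs, where the arrays overlapped the DMSO arrays (log2 change 0.51, SE 0.49, adjusted p = 0.595, limma). They lay below the arrays with rapamycin alone, at a log2 change of -0.90 (SE 0.49, adjusted p = 0.403, limma). The JQ1 arrays also overlapped the DMSO arrays. For EIF2AK3 the header names give log2 changes of 1.08 with JQ1, 0.18 with rapamycin and 1.03 with both drugs (SE 0.61). Under that naming the change with JQ1 is repeated with both drugs. EIF2AK4 (GCN2) ranged from 136.6 to 183.4.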

How the data were processed

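Per the labels' protocols, Trizol-extracted RNA was treated with DNase, column-purified and labelled as biotinylated cRNA for Illumina arrays. The authors' deposited value table contains normalized probe intensity on a linear scale with a floor of 20, where 55.7% to 58.6% of 47304 probes per array lay. The non-normalized intensity deposited by the authors, of which 28.3% to 30.3% is below 0, served for alternatives. The scanner, software, normalization and genome build were not given in the sources used here. The log2 scale was computed here from the deposited intensities.

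Of the probes, 30102 carried 1 gene symbol, 8 several and 17194 none in the platform annotation, and 30063 symbols were updated through gene identifiers to RefSeq (GRCh38.p14). The filter on at least 2 arrays left 23860 probes, 17016 with a symbol. Limma 3.58.1 in R 4.3.3 fitted a mean per group to all 8 arrays (4 residual and 2.92 prior degrees of freedom), with Benjamini-Hochberg adjustment over 12759 genes and intervals at 95%. The fit was run on simulated data whose noise was independent between arrays. That run cannot check the correlation between arrays of the same replicate number. Replicates correlated at 0.971 to 0.976, and the number of arrays limits the precision.

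The members, the list of 38 genes and the motifs were chosen with earlier results of these data known. Values by array are given for members called in the fit or with the replicate block, those with the largest change per complex and treatment, and a list of main factors, 26 in all. EIF4E2, EIF4E3, EIF4H and others are given by range. Alternatives concerned the table, array names, normalization, filter, probe choice, block, samples fitted, variance model, array weights and each array left out. Sequences and motif searches used Python 3.11.15.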

Additional observations from a re-analysis of the deposited data

How the results depend on the processing

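The 26 initiation factors named by array were recomputed under 20 alternative settings, which gave 3114 log2 changes. Of these 3085 stayed on the same side of the threshold, 14 lost a call and 15 gained it, and no called change took the other sign. All 14 losses concern EIF4ENIF1 with both drugs, the adjusted p being 0.0535 after normexp, 0.0589 without a background step, 0.05 after quantile normalization, 0.071 without a filter, 0.129 with only the groups compared, 0.222 with the header names and 0.0545 to 0.143 with an array left out. The gains concern EIF1, EIF1B, EIF2S2, EIF3B and EIF4A3. Among uncalled values 253 changed sign, and with the header names 67 of 156 did. The cause of these differences was not tested.

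Replicate number as a block: the deviations of arrays with the same number correlated at 0.423 to 0.549 in all 6 pairs of groups, but 2 numbers are too few to settle a pairing. With the replicate block 1 initiation factor was called for JQ1 (EIF4A3, adjusted p = 0.0418), 4 with both drugs (EIF1 0.047, EIF1B 0.0314, EIF2S2 0.0293 and EIF4ENIF1 0.0116) and 2 with both drugs over rapamycin (EIF2S2 0.0338 and EIF4A3 0.0382). Over all genes the block gave 1427 calls for JQ1, 44 for rapamycin, 2416 for both drugs, 2 over JQ1, 1445 over rapamycin and 1 for the interaction.

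The count of initiation factors called with both drugs, 1 as reported, was 2 after normexp, 2 over genes above 20 on all 8 arrays, 4 with trended and robust variance and 4 at an adjusted p under 0.10 (a threshold added after seeing the data). It was 0 with the header names, after quantile normalization, without a filter and with only the groups compared. With both drugs over rapamycin it was 1 after normexp, 1 without a background step and 1 at an adjusted p under 0.10. With an array left out these counts were 0 in all 6 comparisons. Over all genes the reported fit called 916 with both drugs. No such count is given here after normexp, over genes above 20 on all 8 arrays, or with trended and robust variance. None is given at an adjusted p under 0.10 either. A rise from 1 to 4 therefore cannot be read as particular to the initiation factors.

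Over all genes the calls with the header names were 1 for JQ1, 25 for rapamycin, 130 for both drugs, 18 over JQ1 and 0 over rapamycin. Without a filter they were 145, 15, 236, 12 and 107, and 18 for the interaction. With only the groups compared they were 0 for JQ1, rapamycin, both drugs and over rapamycin. Normexp gave 644 for JQ1, 20 for rapamycin and 654 over rapamycin, and no background step gave 1 over JQ1 and 1 for the interaction. For rapamycin, genes above 20 on all arrays gave 1, array weights 10, centred arrays 8 and trended and robust variance 7. With an array left out the counts lay between 0 and 163 for JQ1, 0 and 4 for rapamycin, 0 and 555 for both drugs, 0 and 73 over rapamycin, and at 0 over JQ1 and for the interaction.

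The medians per complex that moved by more than the spread between arrays follow. From non-normalized signals with normexp (offset 50) the medians were 0.23 for eIF1, -0.07 for eIF2 and -0.04 for eIF3 (JQ1) and -0.01 for eIF3 (rapamycin). They were 0.01 for eIF2 and -0.06 for eIF3 (both drugs) and 0.08 for eIF2 and 0.13 for eIF3 (both drugs over JQ1). They were -0.13 for eIF2, -0.03 for eIF2B and -0.06 for eIF3 (both drugs over rapamycin) and -0.18 for eIF2B and -0.04 for eIF3 (the interaction). From non-normalized signals with no background step the medians were 0.25 for eIF1, -0.07 for eIF2 and -0.05 for eIF3 (JQ1) and -0.01 for eIF3 (rapamycin). They were 0.01 for eIF2 and -0.06 for eIF3 (both drugs) and 0.20 for eIF1, 0.08 for eIF2 and 0.13 for eIF3 (both drugs over JQ1). They were -0.14 for eIF2, -0.03 for eIF2B and -0.07 for eIF3 (both drugs over rapamycin) and 0.18 for eIF1, -0.19 for eIF2B and -0.04 for eIF3 (the interaction). With the header names the medians were 0.20 for eIF1, 0.02 for eIF2, 0.13 for eIF3, -0.18 for eIF4 and 0.03 for eIF5 and eIF6 (JQ1) and -0.10 for eIF2, -0.63 for eIF2B, 0.00 for eIF3 and 0.11 for eIF4 (rapamycin). They were 0.10 for eIF1, -0.54 for eIF2B, 0.02 for eIF3, -0.13 for eIF4 and -0.52 for eIF5 and eIF6 (both drugs) and -0.06 for eIF1, 0.00 for eIF3, 0.08 for eIF4 and -0.38 for eIF5 and eIF6 (both drugs over JQ1). They were 0.10 for eIF1, 0.10 for eIF2, -0.10 for eIF2B, 0.02 for eIF3 and -0.21 for eIF5 and eIF6 (both drugs over rapamycin) and -0.11 for eIF1, -0.02 for eIF3 and 0.05 for eIF4 (the interaction). Over genes above 20 on all 8 arrays the medians were 0.43 for eIF1 (rapamycin) and 0.74 for eIF1 (both drugs). With the mean of a gene's probes the medians were 0.09 for eIF3 (rapamycin) and 0.44 for eIF1 (both drugs). They were -0.07 for eIF3 (both drugs over rapamycin). With arrays centred on their medians the medians were -0.13 for eIF2 and 0.09 for eIF3 (JQ1) and 0.08 for eIF3 (rapamycin). They were 0.28 for eIF2 and 0.06 for eIF3 (both drugs) and -0.06 for eIF3 (both drugs over rapamycin). They were -0.01 for eIF3 (the interaction). With quantile normalization the medians were 0.03 for eIF3 (rapamycin) and -0.09 for eIF3 (both drugs). They were 0.07 for eIF3 (both drugs over JQ1) and 0.00 for eIF3 (the interaction). With an array left out the eIF1 median lay at 0.32 to 0.55 (JQ1), 0.05 to 0.23 (rapamycin), 0.53 to 0.65 (both drugs), 0.02 to 0.23 (both drugs over JQ1), 0.27 to 0.45 (both drugs over rapamycin) and -0.25 to 0.11 (the interaction). The eIF2 median lay at -0.34 to -0.18 (JQ1), -0.02 to 0.13 (rapamycin), 0.02 to 0.25 (both drugs), 0.09 to 0.26 (both drugs over JQ1), -0.15 to 0.12 (both drugs over rapamycin) and -0.03 to 0.25 (the interaction). The eIF2B median lay at -0.26 to 0.32 (JQ1), -0.37 to 0.05 (rapamycin), -0.23 to 0.08 (both drugs), -0.38 to 0.09 (both drugs over JQ1), -0.09 to 0.35 (both drugs over rapamycin) and -0.11 to 0.33 (the interaction). The eIF3 median lay at -0.06 to 0.00 (JQ1), 0.01 to 0.09 (rapamycin), -0.11 to -0.03 (both drugs), 0.03 to 0.14 (both drugs over JQ1), -0.11 to -0.05 (both drugs over rapamycin) and -0.09 to 0.05 (the interaction). The eIF4 median lay at -0.06 to 0.08 (JQ1), -0.22 to -0.08 (rapamycin), -0.30 to -0.11 (both drugs), -0.31 to -0.09 (both drugs over JQ1), -0.20 to -0.02 (both drugs over rapamycin) and -0.17 to -0.04 (the interaction). The eIF5 and eIF6 median lay at 0.07 to 0.33 (JQ1), -0.27 to 0.04 (rapamycin), -0.20 to 0.37 (both drugs), -0.35 to 0.08 (both drugs over JQ1), -0.08 to 0.48 (both drugs over rapamycin) and -0.19 to 0.24 (the interaction).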
